A study of Mus musculus and Homo sapiens
Mus musculus with 14 samples.

Results

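Melanopsin ganglion cell genes were followed through the retinal libraries as 7 named genes: Opn4, Eomes, Adcyap1, Tbx20, Trpc6, Trpc7 and Rasgrp1. They were picked out by gene symbol, with no threshold on a measured value. All 7 were found among the 24460 genes with a row in the table of retinal layers and among the 18415 genes with a row in the table of amacrine cells.

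Melanopsin, the product of Opn4, is a light-sensitive pigment of a rare class of retinal ganglion cells. These intrinsically photosensitive cells respond to light on their own, in addition to the input they receive from rods and cones through bipolar cells, and they set the body clock and the size of the pupil. In the best-studied of them melanopsin acts through a Gq-class G protein and phospholipase C, which open TRPC6 and TRPC7 cation channels. The T-box transcription factors Eomes (also called Tbr2) and Tbx20 are expressed in these cells, and Eomes is needed for them to form or persist. Adcyap1 encodes the neuropeptide PACAP, which melanopsin cells release together with glutamate in the brain. Rasgrp1 encodes a diacylglycerol-activated exchange factor for Ras that is best known from T lymphocytes and is also found in melanopsin cells.

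The libraries were made by Light-Seq, in which RNA is reverse transcribed inside a fixed tissue section and DNA barcodes are crosslinked by light onto the cDNA of chosen cells before extraction and sequencing. In 4 retinal sections the outer nuclear layer (ONL, photoreceptors), the bipolar cell layer (BCL) and the ganglion cell layer (GCL, ganglion cells and displaced amacrine cells) each received a barcode. In 5 other sections barcodes were given to TH+ amacrine cells, the rare dopaminergic neurons that stain for tyrosine hydroxylase, and to TH- amacrine cells. All groups came from wild-type (WT) CD1 IGS mice in the third postnatal week, with no transgene or treatment. The 4 sections of the layer experiment came from the same animal, and the study calls the 4 and the 5 sections technical replicates, so every p-value here measures the spread between sections and not between animals. Each TH+ library is a pool of a few cells. Melanopsin cells were not selected in any library, so their RNA enters the GCL as a small part of a mixed pool, in which fewer cells of a type and less RNA per cell cannot be told apart.

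Levels are counts of unique molecular identifiers (UMIs), which mark each cDNA molecule once, or counts per 1000000 UMIs of the library's total (CPM). Totals ran from 310228 to 801105 UMIs in the ONL, 193869 to 208437 in the BCL, 585655 to 785013 in the GCL, 30317 to 87449 in TH+ and 134394 to 200344 in TH- libraries. A single UMI therefore weighs far more in the BCL and in TH+ cells than in the GCL. As a check on the layer labels, 10 of 10 ganglion cell markers were higher in the GCL than in the ONL and 9 of 10 than in the BCL, with the tenth (Isl1, also a bipolar and amacrine cell gene) lower in the GCL.

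The upstream sequences of Opn4 and Tbx20 are shown because this pair of genes fell together in a single GCL section, as described further on. Each run holds the 250 bases before the start of the canonical transcript, 5′ to 3′ on the gene's strand, from assembly GRCm39. Both genes lie on the minus strand, Opn4 at chr14:34312575-34322099 and Tbx20 at chr9:24629434-24685599.
Opn4, chr14:34322100-34322349, minus strand: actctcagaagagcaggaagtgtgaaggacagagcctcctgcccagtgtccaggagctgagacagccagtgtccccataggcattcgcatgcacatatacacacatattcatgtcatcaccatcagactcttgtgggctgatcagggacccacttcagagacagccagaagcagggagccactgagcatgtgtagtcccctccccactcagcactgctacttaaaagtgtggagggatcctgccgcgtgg
Tbx20, chr9:24685600-24685849, minus strand: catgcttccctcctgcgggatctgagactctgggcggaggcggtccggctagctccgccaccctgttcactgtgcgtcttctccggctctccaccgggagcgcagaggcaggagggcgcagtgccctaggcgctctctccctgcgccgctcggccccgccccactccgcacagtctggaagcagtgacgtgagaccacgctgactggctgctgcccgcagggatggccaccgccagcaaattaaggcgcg
The Tbx20 window was 68.8% G or C and the Opn4 window 54.8%, against a median of 53.2% over 21738 promoters of the same length. The T-box core GGTGTGA, searched on both strands, was found in 3.23% of all promoters and in 0 of the 7 members. The homeodomain core TAATTA, which reads the same on both strands, was in 5.16% of all promoters and in 0 of the 7. The TATA box letters TATAAA, anywhere in the window and on either strand, were in 11.9% of promoters. Of the 7 members only Trpc7 had a match, at position -162 from the start. None of the 3 motifs overlaps another in letters, and a match or its lack describes only these windows.

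Opn4 was present mainly in the GCL. The GCL libraries of sections 1 to 4 held 49, 1, 33 and 26 UMIs of Opn4, the BCL libraries 1, 0, 0 and 2, and the ONL libraries 0, 1, 2 and 2. The GCL values were high in sections 1, 3 and 4 and, in section 2, as low as in the other layers, so the ranges of the layers overlapped. Scaled to their totals the GCL libraries stood at 62.4, 1.5, 50.7 and 44.4 CPM, a mean of 39.8 ± 26.6 CPM (SD, n = 4). The means were 3.76 ± 4.75 CPM in the BCL and 3.10 ± 2.94 CPM in the ONL (SD, n = 4 each). The fitted log2 fold change was 3.88 ± 0.61 (SE) for the GCL against the ONL, 14.7-fold, with an adjusted p of 2.063e-07 (edgeR quasi-likelihood test, Benjamini-Hochberg over 11324 genes). Against the BCL it was 3.50 ± 0.77 (adjusted p = 0.0001997, edgeR). As the BCL held only 3 UMIs of Opn4 in all, the ratio of summed CPM was 10.8 with a counting interval of 3.61 to 53.3 (exact, 95%). Without section 1, the library with the most Opn4, the log2 fold change against the ONL fell to 2.97. Without section 4, whose BCL library held 2 of the 3 UMIs, the log2 fold change against the BCL was 4.53. Both differences kept an adjusted p under 0.05 in every alternative fit in which Opn4 was tested.

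Eomes (chr9:118307280-118315200) was the member with the most UMIs in the GCL. The GCL libraries held 65, 38, 60 and 65 UMIs, the BCL libraries 1, 0, 0 and 5, and the ONL libraries 5, 6, 2 and 3. All 4 GCL libraries lay above all 8 others. The GCL mean was 85.7 ± 22.5 CPM, against 7.47 ± 11.8 CPM in the BCL and 7.19 ± 2.25 CPM in the ONL (SD, n = 4 each). The log2 fold change of the GCL was 3.38 ± 0.32 (SE) against the ONL, 10.4-fold, and 3.62 ± 0.44 against the BCL, 12.3-fold (edgeR, adjusted p = 1.38e-13 and 1.109e-09). Section 4 held 5 of the 6 BCL UMIs, and without it the log2 fold change against the BCL was 5.51.

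Tbx20 had 58, 13, 55 and 54 UMIs in the GCL libraries, 3, 2, 1 and 1 in the BCL and 5, 2, 0 and 1 in the ONL. Each GCL library lay above all 8 others, with section 2 far below its neighbours. The mean was 67.5 ± 32.9 CPM in the GCL, 8.77 ± 4.96 CPM in the BCL and 3.06 ± 2.56 CPM in the ONL (SD, n = 4 each). The GCL was 16.0-fold above the ONL, a log2 fold change of 4.0 ± 0.44 (SE), and 8.38-fold above the BCL, 3.07 ± 0.50 (edgeR, adjusted p = 1.605e-11 and 1.379e-06). Leaving out section 1 raised the log2 fold change against the ONL to 4.66.

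Adcyap1 (chr17:93506397-93515189) reached 10, 4, 11 and 3 UMIs in the GCL libraries. It had 0, 0, 1 and 0 UMIs in the BCL and 0, 1, 0 and 1 in the ONL. All GCL values were above those of the other layers, the nearest being 5.12 CPM in GCL section 4 and 5.08 CPM, a single UMI, in BCL section 3. Adcyap1 did not pass the low-count filter and so has no test in the planned fit. The ratio of summed CPM was 11.8 for the GCL against the ONL, with a counting interval of 2.98 to 103, and 8.35 against the BCL, with an interval of 1.38 to 341 (exact, 95%). In the edgeR fit without a filter the adjusted p was 0.0001804 against the ONL and 0.01603 against the BCL. DESeq2 called 7 members against the ONL, Adcyap1 among them, and 3 against the BCL, where Adcyap1 was not called. Without section 3 or without section 4, Adcyap1 passed the filter and edgeR called it in both comparisons.

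The channel genes were both rare. The layer mean was highest in the GCL for Trpc6 and in the BCL for Trpc7, and the genes were not tested against each other. Trpc6 (chr9:8492905-8682359) had 5, 4, 5 and 6 UMIs in the GCL libraries, 0, 1, 0 and 0 in the BCL and 2, 0, 0 and 0 in the ONL. All GCL libraries lay above those of the other layers, at 6.37, 5.99, 7.68 and 10.2 CPM. The log2 fold change was 2.62 ± 0.80 (SE) against the ONL (edgeR, adjusted p = 0.003836), with a ratio of summed CPM of 8.45 and a counting interval of 2.05 to 74.6. Against the BCL it was 2.49 ± 1.06 and did not pass (edgeR, adjusted p = 0.05998), and the counting interval of the ratio, 0.954 to 247, includes no difference.

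Trpc7 (chr13:56920921-57043806) was detected in all 4 BCL libraries as well as in the GCL. The GCL libraries held 2, 4, 4 and 2 UMIs, the BCL libraries 3, 3, 3 and 1 from shallower libraries, and the ONL libraries 0, 1, 0 and 0. In CPM the BCL stood at 15.5, 14.4, 15.2 and 4.94 and the GCL at 2.55, 5.99, 6.15 and 3.42. BCL sections 1 to 3 were above all GCL libraries and BCL section 4 was within their range. Trpc7 was higher in the BCL than in the ONL, by a log2 fold change of 3.90 ± 0.97 (SE, edgeR, adjusted p = 0.0009328). Since the ONL held 1 UMI, the ratio of summed CPM was 28.4 with a counting interval of 4.03 to 1231. The GCL was also above the ONL, by 2.63 ± 0.97 (edgeR, adjusted p = 0.01576), but without section 3 this was 2.25 with an adjusted p of 0.08336. Between the GCL and the BCL the log2 fold change was -1.27 ± 0.64 (edgeR, unadjusted p = 0.05499, adjusted p = 0.123). The estimate lay toward the BCL, and the difference did not pass the test.

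Rasgrp1 (chr2:117110466-117173485) was not limited to the GCL. The GCL libraries held 43, 47, 41 and 33 UMIs, the BCL libraries 12, 17, 9 and 8, and the ONL libraries 17, 5, 5 and 5. Scaled to depth, the GCL stood at 54.8, 70.4, 63.0 and 56.3 CPM, the BCL at 61.9, 81.6, 45.7 and 39.6 CPM and the ONL at 21.2, 6.92, 11.4 and 16.1 CPM. The GCL and BCL ranges overlapped, and both lay above the ONL. The GCL exceeded the ONL by a log2 fold change of 1.93 ± 0.27 (SE) and the BCL did so by 1.67 ± 0.34 (edgeR, adjusted p = 9.861e-09 and 6.996e-05). The GCL against BCL value was 0.26 ± 0.26 (edgeR, adjusted p = 0.4788), with a 95% interval of -0.25 to 0.76.

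**Figure D1:**
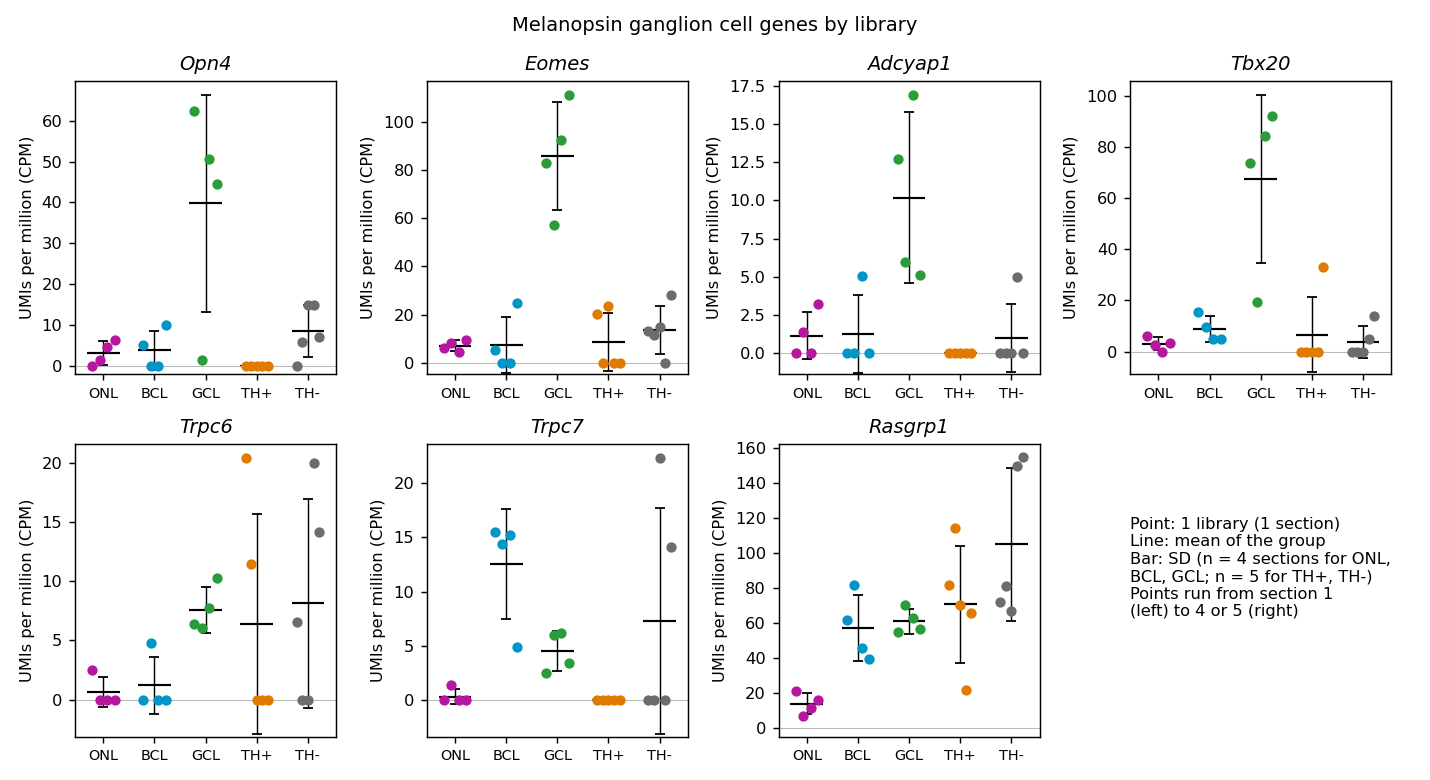
CPM of each gene (y axis, own scale per panel) in every library of the 5 groups on the x axis, with the group mean as a line and the SD as a bar (n = 4 sections for ONL, BCL and GCL, n = 5 for TH+ and TH-). Opn4, Eomes, Adcyap1 and Tbx20 stand highest in the GCL, with section 2 of Opn4 at 1.5 CPM, whereas Rasgrp1 is present in every group and Trpc7 stands highest in the BCL among the layers.

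Taking the means of the 3 layers together, the GCL held 85.3% of the CPM of Opn4, 85.4% of Eomes, 85.1% of Tbx20, 80.8% of Adcyap1 and 80.6% of Trpc6. For Rasgrp1 the GCL share was 46.2% and for Trpc7 26.0%. Corrected for gene length, GCL levels in CPM per kilobase of the authors' gene length were 20.6 ± 5.41 for Eomes, 13.4 ± 8.98 for Opn4 and 10.9 ± 1.28 for Rasgrp1 (SD, n = 4). Tbx20 followed at 5.63 ± 2.74, Adcyap1 at 2.7 ± 1.49, Trpc6 at 1.5 ± 0.38 and Trpc7 at 1.17 ± 0.469 CPM per kilobase (SD, n = 4). Eomes and Opn4, Opn4 and Rasgrp1, Adcyap1 and Trpc6, and Trpc6 and Trpc7 are neighbours in this order whose means differ by less than the larger SD of the pair. In the BCL the order differed, with Rasgrp1 first at 10.2 ± 3.35 and Trpc7 next at 3.23 ± 1.31 CPM per kilobase (SD, n = 4).

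Of the 7 genes, 6 passed the low-count filter, and all 6 were called higher in the GCL than in the ONL at an adjusted p under 0.05 (edgeR). In that comparison 61.5% of the 11324 genes tested were called, 32.2% higher in the GCL and 29.3% higher in the ONL. Against the BCL 3 of 6 were called, Opn4, Eomes and Tbx20, all higher in the GCL, where 36.5% of genes were called, 20.4% higher in the GCL and 16.1% higher in the BCL. In the BCL against the ONL 2 of 6 were called, Trpc7 and Rasgrp1, both higher in the BCL, beside 36.7% of all genes, 18.2% higher in the BCL and 18.5% higher in the ONL. Several of these rare genes passed the filter only through the layer in which they were high, so the counts describe the members that could be tested. The median log2 fold change of the 6 was 3.01, 2.78 and 0.66 in the 3 comparisons in the same order, against -0.0041, 0.02 and -0.09 over all genes tested. The 3 comparisons share libraries and are not independent of each other.

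**Figure D2:**
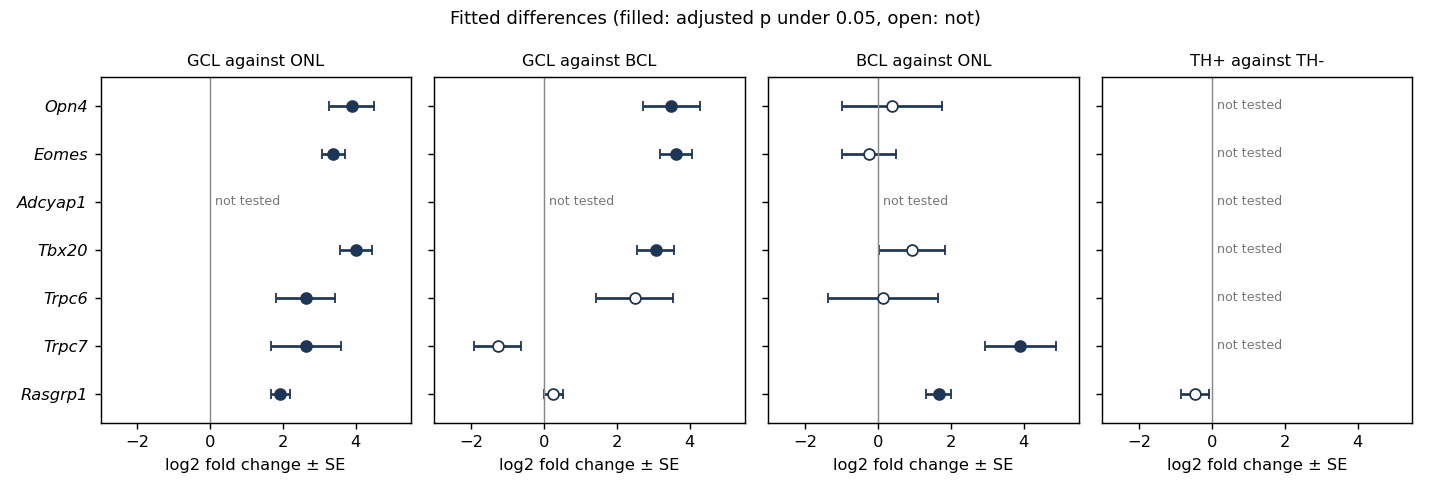
Fitted log2 fold change (x axis) with its SE as a bar for each gene in the 4 comparisons, filled where the adjusted p was under 0.05 and open where it was not. Opn4, Eomes and Tbx20 lie between 3.07 and 4.0 in both GCL comparisons, while Rasgrp1 and Trpc7 are positive in the BCL against the ONL, at 1.67 and 3.90.

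Opn4 and Tbx20 differed between the GCL sections. Opn4 in section 2 was a single UMI (counting interval 0.025 to 5.57 UMIs, exact, 95%) in a library of 667252, where sections 1, 3 and 4 held 26 to 49. This was 2.85% of the mean CPM of the other sections, 35.0-fold below. Tbx20 in the same library was at 19.5 CPM, 23.3% of the mean of the others or 4.29-fold below. Among the 4863 genes with at least 100 UMIs over the GCL libraries, a limit chosen after the values were seen, Opn4 was the lowest in section 2 relative to the other sections and Tbx20 was next. The following genes, Ube3a, 9330162G02Rik and Wdr41, named here only for their rank, were at 37.7%, 38.9% and 42.5%. Ube3a held 148, 166, 980 and 168 UMIs in sections 1 to 4, so its low share comes from a high section 3. For comparison, the 1st percentile over these genes in section 2 was 62.8%, the median 100.4% and the 99th percentile 154.1%. The lowest genes of the other sections were Ube3a in section 1 at 27.7%, Myl9 in section 3 at 4.6% and Nt5c3b in section 4 at 42.5%. In section 3, Acta2, Mcam and Eln followed at 6.6%, 13.1% and 15.2%, so deep lows in a single section were not particular to the members.

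Eomes was also low in section 2, at 56.9 CPM and 59.7% of the mean of the others, which placed it 24th from the bottom. Adcyap1 and Trpc6, at 4 UMIs each in section 2, were too rare for this ranking. Rasgrp1 was at 121% in section 2, above the median gene. The summed level of the 10 ganglion cell markers was 5235 CPM in section 2, against 5160, 4887 and 5406 CPM in sections 1, 3 and 4, and that of the 10 amacrine cell markers was 4375 CPM, against 4098, 4013 and 4412 CPM. In the TH- and TH+ libraries, cut from other sections, no such comparison could be made for Opn4 at these counts. The position of each section in the retina is not given in the sources used here, and its part in the result was not tested.

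Leaving out section 2, the GCL means were 52.5 ± 9.15 CPM for Opn4, 83.5 ± 9.20 CPM for Tbx20 and 95.3 ± 14.3 CPM for Eomes (SD, n = 3). The SD of Opn4 was thus 26.6 CPM with section 2 and 9.15 CPM without it. With a minimum of 50 UMIs in place of 100, Opn4 and Tbx20 ranked 1st and 5th from the bottom of 7151 genes, and with a minimum of 30 UMIs 2nd and 17th of 8734. Eomes ranked 127th and 338th from the bottom at these limits, and 5th of the 2888 genes with at least 200 UMIs, a limit that only Eomes of the members reached. Section 1 stood at the other end for Opn4, at 194% of the mean of the others, 2nd from the top of the 4863 genes. That rank is partly fixed by section 2, whose low value lowers the mean of the others.

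**Figure D3:**
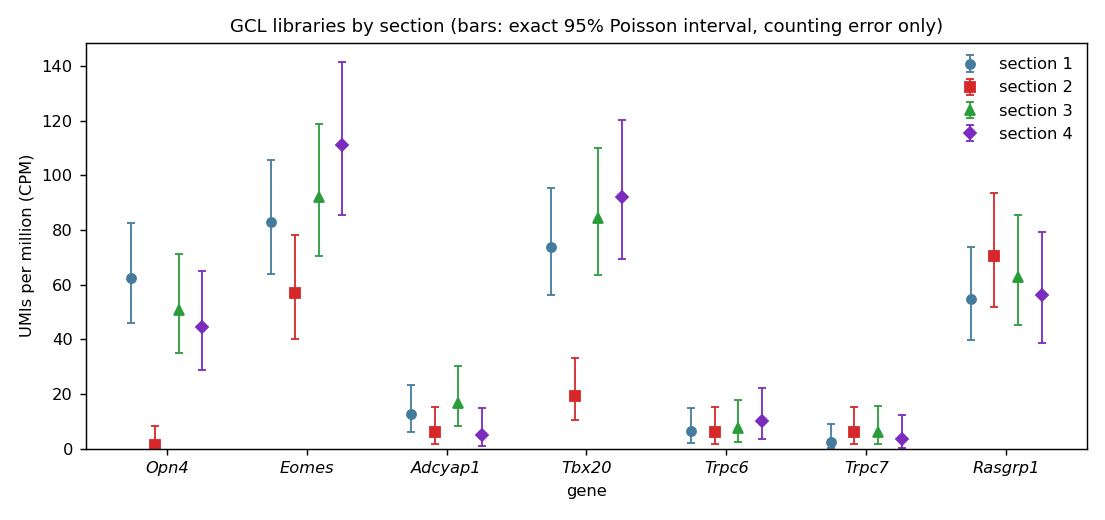
CPM (y axis) of the 7 genes (x axis) in the GCL libraries of the 4 sections, with the exact 95% Poisson interval of the UMI count as a bar, which covers counting error only. The intervals of section 2 for Opn4 (up to 8.35 CPM) and Tbx20 (10.4 to 33.3 CPM) lie below those of the other 3 sections.

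**Figure D4:**
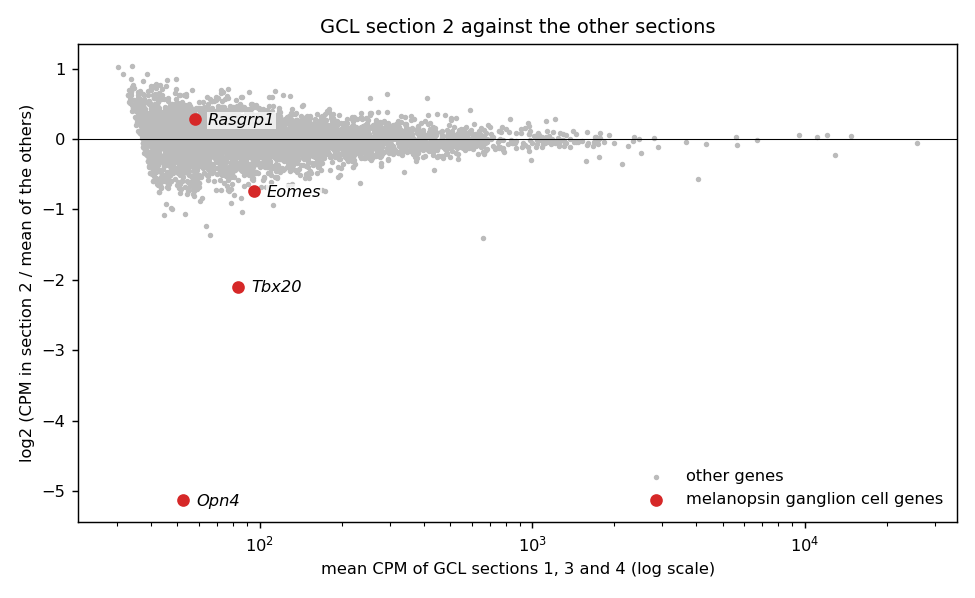
Each point is a gene with at least 100 UMIs over the GCL libraries (4863 genes), with the mean CPM of sections 1, 3 and 4 on a log scale (x axis) and the log2 ratio of section 2 to that mean (y axis). Opn4 at -5.13 and Tbx20 at -2.10 lie below all other genes, and Eomes at -0.74 lies at the lower edge.

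Over the 12 layer libraries the levels of Eomes and Tbx20 ran closest to those of Opn4 among the 5 other members tested, which leaves out Adcyap1. Pearson's r of log2 CPM with Opn4, a description over libraries that share layers and sections, was 0.82 for Eomes, 11th of 11323 genes, and 0.80 for Tbx20, 32nd. It was 0.58 for Trpc6, 0.31 for Rasgrp1 and -0.14 for Trpc7. The 5 genes with the highest r were Irgq (0.90), Zeb1 (0.87), Hsf4 (0.87), Gpr45 (0.87) and Map2k4 (0.86). In rare genes such an r reflects the layer difference together with counting noise.

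In the amacrine libraries 6 of the 7 genes were too rare to be tested. Opn4 had 0 UMIs in all 5 TH+ libraries and 0, 1, 2, 3 and 1 in the TH- libraries of sections 1 to 5. The 0 of 255496 TH+ UMIs allows a level of up to 14.4 CPM (exact 95% interval). This is above the 8.73 CPM (3.51 to 18.0, same kind of interval) of the pooled TH- libraries, so a difference was not detectable at this depth. Eomes had 1, 0, 1, 0 and 0 UMIs in TH+ and 2, 2, 2, 0 and 4 in TH- libraries. Trpc6 had 1, 1, 0, 0 and 0 UMIs in TH+ and 1, 0, 0, 4 and 2 in TH- libraries. These values overlapped between the groups. In these shallow libraries the few Trpc6 UMIs came to means of 6.37 ± 9.28 CPM in TH+ and 8.13 ± 8.81 CPM in TH- (SD, n = 5 each), beside 7.57 ± 1.92 CPM in the GCL (SD, n = 4).

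Trpc7 had 0 UMIs in every TH+ library and 0, 0, 3, 0 and 2 in the TH- libraries, where its mean was 7.28 ± 10.4 CPM (SD, n = 5), beside 4.53 ± 1.82 CPM in the GCL (SD, n = 4). Amacrine and layer libraries come from separate tables, and no test was made between them. Tbx20 had 1 UMI in TH+ section 5 and, among TH- libraries, 1 in section 4 and 2 in section 5. Adcyap1 was seen as 1 UMI in TH- section 4 and in no TH+ library. For each of these genes most libraries of both groups were at 0.

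Rasgrp1 was the exception, with UMIs in all 10 amacrine libraries. TH+ libraries held 4, 10, 3, 1 and 2 UMIs and TH- libraries 11, 14, 9, 30 and 22. That corresponds to 81.7, 114, 70.6, 21.6 and 66.0 CPM in TH+ and 72.3, 81.0, 67.0, 150 and 155 CPM in TH- libraries. The 2 groups overlapped, with TH- sections 4 and 5 above all TH+ libraries. The means were 70.8 ± 33.4 CPM and 105 ± 43.6 CPM (SD, n = 5 each). The log2 fold change of TH+ against TH- was -0.46 ± 0.39 (SE), with an adjusted p of 0.8037 (edgeR, over 6021 genes) and a 95% interval of -1.22 to 0.30. Thus 0 of the 1 member tested was called, with an unadjusted p of 0.2403 in the same model fitted across all genes with edgeR, and DESeq2 also called 0. Of all genes tested 0.83% were called here, 0.747% higher in TH+ and 0.083% higher in TH- cells. Rod transcripts were abundant in both groups, at 12970 to 33650 CPM in TH+ and 7429 to 19780 CPM in TH- libraries for 5 rod markers summed, and their part in these values was not tested.

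The cascade through which melanopsin signals was represented by a list of 15 genes. These encode Gq-class proteins, phospholipase C, TRPC channels, arrestins and a receptor kinase, and 12 of them were tested. In the GCL against the ONL 11 were higher and 1 lower, and in the GCL against the BCL 7 were higher, 2 lower and 3 not called. In the BCL against the ONL 6 were higher, 1 lower and 5 not called. Median log2 fold changes of the list were 1.48, 0.77 and 0.80 in that order.

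Plcb1, a phospholipase C, had 113, 110, 97 and 108 UMIs in the GCL and 11, 6, 10 and 5 in the BCL libraries, a log2 fold change of 2.16 ± 0.23 (SE, edgeR, adjusted p = 4.291e-11). Arrb1, an arrestin that binds active receptors, was higher in the GCL by 1.36 ± 0.17 (edgeR, adjusted p = 3.738e-09). Trpc1 was lower in the GCL than in the BCL, by -0.90 ± 0.23 (edgeR, adjusted p = 0.001393). Plcb1 and Arrb1 held 97 to 113 and 177 to 229 UMIs in the GCL libraries, with section 2 inside the range of the other sections for both.

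Of the 4 listed genes of PACAP and VIP signalling, 2 were tested. Adcyap1r1, the receptor for PACAP, was higher in the GCL than in the BCL by a log2 fold change of 1.84 ± 0.53 (SE, edgeR, adjusted p = 0.004398), with 26, 12, 15 and 13 against 2, 2, 0 and 2 UMIs. Vipr2, a receptor for VIP and PACAP, was not called at 0.14 ± 0.22 (edgeR, adjusted p = 0.6754). Against the ONL both were higher in the GCL.

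Among the other T-box factors 12 of 15 had a row in the table and 4 were tested. Tbr1, a close relative of Eomes that marks other ganglion cells, was higher in the GCL than in the BCL by 3.06 ± 0.60 (SE, edgeR, adjusted p = 4.043e-05). Its UMIs in the GCL libraries were 22, 25, 20 and 13, so section 2 was the highest, unlike for Eomes and Tbx20. Tbx3 was higher by 2.14 ± 0.48, while Tbx2 and Mga were lower by -1.84 ± 0.16 and -0.77 ± 0.15 (edgeR, adjusted p = 0.0002347, 6.683e-14 and 4.033e-05).

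Of the other RasGRP exchange factors Rasgrp2 was higher in the GCL than in the BCL, by 2.18 ± 0.44 (SE, edgeR, adjusted p = 5.235e-05), with 30, 31, 32 and 18 UMIs in the GCL and 3, 2, 2 and 1 in the BCL. Rasgrp3 was not called, at 0.31 ± 0.87 (edgeR, adjusted p = 0.8213). Of the lymphocyte markers Cd3e, Cd3g, Cd2, Cd4 and Nkg7 had 0 UMIs in every group, and Ptprc had 4 UMIs over the GCL libraries and 0 in the ONL and BCL.

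Of 7 other opsins 5 were tested, and in the GCL against the BCL 0 were higher, 3 were lower and 2 were not called. Those lower included the cone opsin Opn1sw at -1.17 ± 0.27 and Rrh, an opsin of the pigment epithelium, at -4.33 ± 0.76 (SE, edgeR, adjusted p = 0.0004683 and 5.319e-06). Against the ONL 0 were higher in the GCL and 4 were lower. Opn3 was too rare to be tested, with 1, 1, 2 and 2 UMIs in the GCL libraries and 0 in every library of the other groups. Opn5, also untested, had 0, 0, 1 and 1 UMIs in the GCL libraries and 1 in ONL section 1. Among the members of this family Opn4 was thus the only tested gene that was higher in the GCL in both comparisons.

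Of 3 further genes listed as markers of melanopsin cells, Irx1 had 2, 0, 0 and 4 UMIs in the GCL libraries and Nmb 0, 2, 0 and 0, and neither was tested. Adra2a, an adrenergic receptor, was the only one tested and was higher in the BCL than in the GCL, with a log2 fold change of -3.05 ± 0.28 for the GCL (SE, edgeR, adjusted p = 1.418e-13). In TH+ against TH- cells no gene of the cascade, PACAP, T-box or further marker lists was called (edgeR), out of 9, 2, 3 and 1 tested. No RasGRP factor other than Rasgrp1 was tested there.

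Trpc6 is also expressed in smooth muscle, and the summed level of 5 pericyte and smooth muscle markers was 692, 646, 350 and 710 CPM in the GCL libraries, 165 to 216 CPM in the BCL and 34.2 to 81.1 CPM in the ONL. All 4 tested genes of that list were higher in the GCL than in either other layer. In section 3, where the list was lowest, Trpc6 had 5 UMIs or 7.68 CPM, within the range of the other sections. The part of vessel cells in the level of Trpc6 was not tested.

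Exons of Opn4, Eomes, Adcyap1 and Trpc7 overlap noncoding genes annotated on the opposite strand, in a later release of the annotation than the authors used, and those of Tbx20, Trpc6 and Rasgrp1 do not. Counting with featureCounts was run at its defaults, which ignore strand, so for these 4 genes reads from either strand cannot be told apart. In mouse 3T3 fibroblasts, which served in the series as a cell-culture test, the 7 genes had 0 UMIs in 3 wells with 540880 UMIs in all, which allows up to 5.55 CPM for each.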

How the data were processed

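The authors extracted barcodes and UMIs with UMI-tools 1.1.1, aligned the cDNA with STAR 2.7.9a to the mouse genome (mm39), gave uniquely mapped reads to exons of GENCODE genes with featureCounts at its defaults, which ignore strand, and collapsed UMIs per gene. They then split the reads by barcode, accepting no mismatch. The deposited counts are therefore whole UMIs per gene and barcode, without normalization, and the deposited gene length was used only for CPM per kilobase. Columns named ONL, BP and RGC of sections 1 to 4 gave the ONL, BCL and GCL, and columns Th and Am of sections 1 to 5 the TH+ and TH- cells. A pooled library of the layers was not analysed here.

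All genes with at least 3 UMIs in enough libraries and 10 in total entered edgeR 4.0.16 (R 4.3.3) with TMM scaling and its quasi-likelihood F-test, in a fit of 12 layer libraries (11324 genes) and a fit of 10 amacrine libraries (6021 genes). Adjusted p follow Benjamini-Hochberg over all genes tested and were called at 0.05. SE is the size of the log2 fold change divided by the square root of F. The 95% intervals of a log2 fold change are a normal approximation from this SE, slightly narrower than the F-test implies. The biological coefficient of variation was 9.165% in the layers and 16.05% in the amacrine libraries. CPM divide by the column total. Poisson and binomial intervals are exact at 95% and, like the limit of 3 UMIs behind a count of 0, cover counting error only. The edgeR fits were also run on simulated counts in which only more abundant genes were changed, so that run does not measure how well rare genes are tested. Correlations used log2 CPM with a prior count of 2. Positions and sequences are from GRCm39, matched by gene. Figures used matplotlib 3.10.9.

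The members, gene lists and tests were chosen with earlier results of these data known. The rule for named genes takes all 7 members, at most 4 genes of each pathway list by smallest adjusted p in the GCL against BCL comparison (2 for TH+ against TH-), the 5 genes closest to Opn4 and cell type markers as lists. A few genes it would name are left out here.

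Libraries that share a number were cut from the same section, which is where the pairing comes from. After removing group means, libraries of the same section correlated at 0.0116 to 0.0492 over 12 pairs of layers, with 0 above 0.1, and at 0.0287 to 0.257 over 5 amacrine pairs, with 2 above 0.1. Alternatives were DESeq2 1.42.0, its size factors in edgeR, no filter, the default filter of edgeR (10 UMIs, 15 in total), the section as a replicate block, only the 2 layers compared, and each section left out.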

Additional observations from a re-analysis of the deposited data

Results flagged for a closer look

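In 7 of the 32 combinations of gene and group with any spread, the highest or lowest library stood apart from the rest of its group by Dixon's test at the 95% level. Chance flags about 1 in 20 groups, and the test assumes values that are not mostly 0. Each of these libraries held only 1 or 2 UMIs of the gene. Above libraries without any UMI stood Adcyap1 in BCL section 3 at 5.08 CPM (1 UMI), Adcyap1 in TH- section 4 at 4.99 CPM (1 UMI), Tbx20 in TH+ section 5 at 33.0 CPM (1 UMI), Trpc6 in ONL section 1 at 2.5 CPM (2 UMIs), Trpc6 in BCL section 2 at 4.80 CPM (1 UMI) and Trpc7 in ONL section 2 at 1.38 CPM (1 UMI). Trpc7 in BCL section 4 was lowest at 4.94 CPM (1 UMI, against 3 UMIs in each other section). The low values of Opn4 and Tbx20 in GCL section 2 did not pass this test.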

How the results depend on the processing

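With the default filter of edgeR the members called were 2 in the GCL against the ONL, 1 in the GCL against the BCL and 1 in the BCL against the ONL, where only Eomes and Rasgrp1 were still tested. With only the 2 layers compared, 1 member, Rasgrp1, was tested and called in the BCL against the ONL, where 3534 of 8436 genes were called. Leaving out each section in turn gave 4 to 7, 3 to 4, 1 to 2 and 0 members in the GCL against the ONL, the GCL against the BCL, the BCL against the ONL and TH+ against TH-. Without section 1 or 2, Trpc6 and Trpc7 did not pass the filter and were not tested. Without section 3 or 4, Adcyap1 passed the filter and was tested as well. Over all genes these layer fits called 6206 to 6821, 3523 to 3664 and 3315 to 3789 of 10987 to 12464 tested. With the section as a replicate block, the pairing changed no member's call (6, 3, 2 and 0), and all genes called in TH+ against TH- went from 50 to 148. Those calls ranged from 29 to 73 with a section left out, the lowest without section 3, then 31 without section 5. The direction turned in the BCL against the ONL for Opn4, to -0.36 without section 1 and -0.22 without section 4, and for Eomes, to 0.32 without section 2 and 0.01 without section 3, none of them called, within ranges of -0.36 to 1.13 for Opn4 and -2.19 to 0.32 for Eomes over the sections left out. Trpc7 in the GCL against the ONL lost its call without section 3 (2.25, adjusted p = 0.08336, edgeR). The other 191 values of single genes kept their direction and their side of the threshold, or moved by less than the spread. The cause of these changes was not tested. Set against the median of the other sections, or with TMM library sizes, both added after the data were seen, section 2 gave -5.08 and -5.14 for Opn4 and -2.12 and -2.11 for Tbx20. Depth is a limit, since a UMI is worth several CPM in the BCL and in TH+ libraries, so levels of Adcyap1, Trpc6 and Trpc7 outside the GCL rest on 1 to 10 UMIs per layer.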
